A study of Caenorhabditis elegans with 15 samples.

Results

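The 40 genes described here carry the symbols snr, rnp, uaf, sap, prp or rsp followed by a number, names that in C. elegans were given mostly to parts of the machinery that removes introns from pre-mRNA. They were chosen by symbol alone among the 17138 genes of the array, and each was read from the brightest probe set that carries its symbol alone, by the mean over 15 arrays. They were 7 snr, 9 rnp, 2 uaf, 2 sap, 12 prp and 8 rsp genes. One further symbol of this form in the WBcel235 gene table, prp-19, was not analysed here. RNA came from whole embryos of the wild-type strain N2 whose mothers had been given the dsRNAs of 3 genes, mex-1, lit-1 plus pal-1, at about 300 ng/ml each and more than 12 h earlier, to deplete those transcripts by RNA interference. Embryos were dissected out with 2 to 4 cells and developed at room temperature for 0, 1, 2, 3 or 4 h more. Each time had 3 arrays, called A, B and C here, and the 3 dsRNAs were common to all 15, so that time was the variable compared and untreated embryos were not analysed here. The gene mex-1 is known to encode a zinc-finger protein supplied by the mother, lit-1 a kinase that acts with Wnt signalling and pal-1 a Caudal homeobox protein, all of which assign fates to early blastomeres, and the series title names cell fate in the MS lineage.

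As background, introns are removed by the spliceosome, which is built on each intron from small nuclear RNAs and their proteins, the snRNPs. A ring of Sm proteins surrounds the U1, U2, U4 and U5 snRNAs, and the U2AF and SF3 proteins recognise the end of the intron and its branch point. The prp proteins, named after yeast mutants, act at several stages, some with the U4/U6 and U5 snRNPs or in catalysis, others with the U1 or U2 snRNP. SR proteins bind exons and help to choose splice sites. An early embryo starts on maternal RNA, including that of these factors, and later transcribes its own genes. Members by symbol are not all splicing factors: rnp-8 encodes a germ-line partner of the poly(A) polymerase GLD-2, and rnp-4 encodes Y14 of the exon junction complex, which is laid down on spliced RNA. The symbol does not settle the role of rnp-1, rnp-9 and sap-140, and none is given to them here.

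Values are log2 expression values, and levels of different genes are not set against each other because each probe set has its own brightness. The highest value of 12 control probe sets for bacterial RNA, 3.71, served as a mark of background. That value came from array 1 h B, and on the other 14 arrays the highest control read 2.91 to 3.33. Statements on background refer to 3.71 on every array, a mark above the controls of those 14. Of the 40 genes 39 exceeded it on at least 3 arrays, as did 8124 of the 17138 genes. The exception was rnp-9, which read 2.94 to 3.56 on all 15 arrays. Array 1 h B stood apart. It was the lowest of the 3 arrays at 1 h for 28 of the 40 genes, and 12 of the 40 (30%) lay over 1 log2 unit below both other 1 h arrays, against 15.2% of the genes above background. On it the yolk genes of the mother's gut read 4.89 (vit-1), 3.20 (vit-2), 8.58 (vit-4), 8.82 (vit-5) and 9.03 (vit-6), each above the other 14 arrays, where the same genes reached at most 3.43, 2.51, 5.03, 5.84 and 5.59. All 8 maternal transcripts listed were lower on it than on both other 1 h arrays, for example oma-2 at 4.64 against 8.73 and 8.50, and its hybridisation controls averaged 11.94 against 8.90 to 11.33 elsewhere. The part of these in the results was not tested, and values without 1 h B are given where they differ. Arrays 1 h B and 1 h C also carry time tags of 2 h and 3 h that conflict with their titles. The titles were followed, because the design text gives 3 samples for every time. Over the tested probe sets 1 h C correlated at 0.98 with 1 h A and at 0.87 to 0.88 with the 3 h arrays. Array 1 h B correlated at 0.91 with 1 h A and at 0.85 to 0.88 with the 2 h arrays. On 1 h C all 8 maternal transcripts listed read higher than on every 3 h array. On 1 h B nos-2 read 8.58 against 4.36 to 4.44 at 2 h, but mex-5 read 5.49 against 5.60 to 5.95. In whole-embryo RNA, fewer cells of a type and less RNA per cell cannot be told apart.

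Over the 5 times 15 of the 40 genes changed by limma's F test (Benjamini-Hochberg adjusted p under 0.05 over 22548 probe sets), against 21.2% of all genes and 42.1% of the genes above background. Between 0 h and 4 h the Sm gene snr-3, the snRNP gene rnp-2, the U2AF gene uaf-2 and the prp genes prp-6 and prp-9 rose, and rnp-1, rnp-8, the SF3 gene sap-49, prp-31 and the SR genes rsp-5 and rsp-7 fell. These are 5 higher, where 7.08% of all genes and 13.2% of those above background were called, and 6 lower, where 9.71% and 19.5% were, so that neither count exceeded the share among genes above background. The median difference of the 40 genes was 0.15 on the log2 scale against 0.10 over all genes. Of the 40 differences 26 lay above 0, as did 11351 of all 17138 genes and 4464 of the 8124 above background. With arrays centred on their median the counts were 3 higher and 6 lower. Centring on the hybridisation controls gave 0 and 6, and centring on ribosomal protein genes 0 and 29. Over all probe sets the median difference was 0.09 as deposited and became -0.02, -0.85 and -1.20 in these 3 scalings. Without 0 h C or 4 h B the higher count was 2 or 3, and without 1 h B it was 8, when snr-1, snr-7 and rnp-3 joined, and the lower count was then 7.

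**Figure D1:**
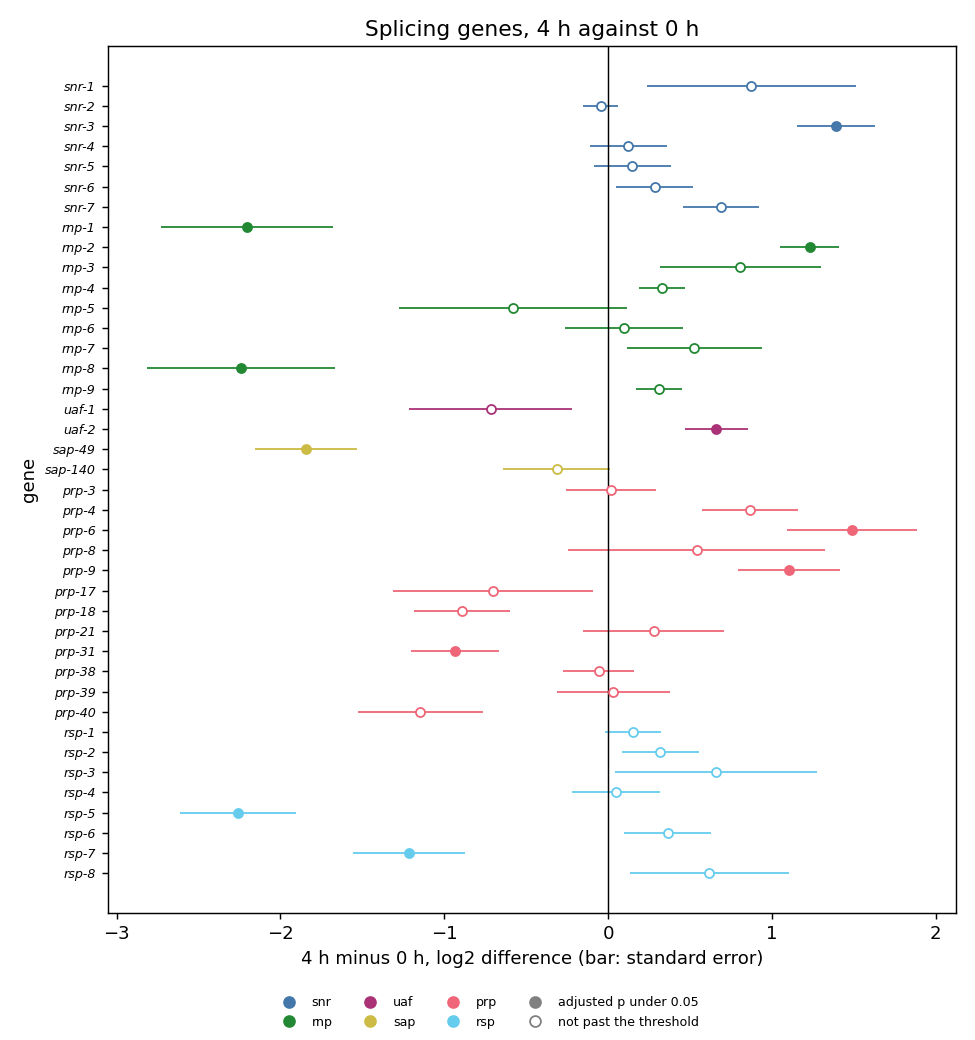
Difference between 4 h and 0 h (log2) for each of the 40 genes, with the standard error of the model as the bar, colour by symbol and filled points for an adjusted p under 0.05. The falls of rsp-5 (-2.26), rnp-8 (-2.24), rnp-1 (-2.20) and sap-49 (-1.85) stand to the left, and the rises of prp-6 (1.49) and snr-3 (1.39) to the right, rises that were not called with arrays centred on the hybridisation controls or on ribosomal protein genes.

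The SR genes showed a common shape, with 7 of the 8 at their highest mean at 2 h, where 12.5% of all genes and 16.7% of the genes above background had theirs. The same 7 of 8 were highest at 2 h without array 1 h B. No SR gene was called between 2 h and 3 h, and of these 7 only rsp-1 and rsp-2 were called between 1 h and 2 h. A peak at 2 h was thus not told apart by test from a level kept at 3 h. Between 0 h and 2 h rsp-1, rsp-2, rsp-4 and rsp-8 rose, 4 of the 8 SR genes and 4 of the 8 members that rose in this comparison, where 7.32% of all genes and 14.6% of those above background were called higher. The 3 members lower at 2 h were rnp-8, sap-49 and rsp-5, where 8.83% and 17.6% were. Between 2 h and 4 h rsp-1, rsp-2, rsp-4 and rsp-7 fell, 4 of the 5 members that fell, where 3.69% of all genes and 7.57% of those above background were called lower. No member was called higher between these times, where 2.3% and 4.26% were. These comparisons were added after the data had been seen, and they share the arrays of 2 h. The exception to the shape was rsp-5, which was highest at 0 h. All SR genes but rsp-7 were read from probe sets with the suffix that marks possible cross-hybridisation. Probe sets without it existed for 5 of the 8. Of these 4 lay above 0 h at 2 h, 1 of them called, and 5 lay below 2 h at 4 h, 2 of them called.

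The rsp-1 gene (W02B12.3, chromosome II in WBcel235), the homologue of the human SR protein SRp75, read 9.41, 9.48 and 9.76 at 0 h, 9.90, 9.45 and 9.74 at 1 h, 10.59, 10.70 and 10.77 at 2 h, 10.35, 9.78 and 10.06 at 3 h, and 9.93, 9.55 and 9.61 at 4 h. The 3 arrays at 2 h lay above all 12 others. It rose by 0.99 ± 0.17 (SE) between 1 h and 2 h (limma adjusted p = 0.00202) and was 1.14 ± 0.17 above 0 h (2.2-fold, adjusted p = 0.000334), then fell by 0.99 on the log2 scale by 4 h (adjusted p = 0.00278). At 4 h it was 0.15 from its 0 h level (adjusted p = 0.625). Its other probe sets, 1 of them without the suffix that marks possible cross-hybridisation, gave means of 8.45 and 8.86 at 0 h, 10.44 and 10.36 at 2 h and 8.72 and 8.87 at 4 h, the same shape. The next protein-coding gene on the chromosome is rsp-2 (W02B12.2), a homologue of SRp40, with 0 coding genes between them. It read 8.84, 8.95 and 8.55 at 0 h, 9.47, 8.97 and 9.62 at 1 h, 9.78, 10.25 and 10.50 at 2 h, 9.77, 9.34 and 9.89 at 3 h, and 9.43, 8.88 and 8.97 at 4 h. The 2 h arrays of rsp-2 lay above all those of 0 h, 1 h and 4 h. Its level at 2 h was 1.40 ± 0.24 (SE) over that of 0 h (2.64-fold, adjusted p = 0.000911), and by 4 h it dropped by 1.08 on the log2 scale (adjusted p = 0.015). The fall was not called without 2 h B, 2 h C, 4 h B or 4 h C (-0.92 to -1.05, adjusted p from 0.061 to 0.0781). The step of rsp-2 from 1 h to 2 h, 0.82 (adjusted p = 0.0467), was near the threshold and was lost without 1 h B (0.63, adjusted p = 0.166) and without 10 other single arrays, among them all of 0 h (0.82, adjusted p from 0.055 to 0.0594). Both rsp-2 probe sets carry the suffix of possible cross-hybridisation. The second was also highest at 2 h, with means of 8.42 at 0 h, 9.41 at 2 h and 8.16 at 4 h. Its step from 1 h to 2 h was not called (0.97, adjusted p = 0.0998), nor was its change over time (limma's F test, adjusted p = 0.0882).

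The rsp-4 gene, homologue of SC35, read 9.19, 9.69 and 9.38 at 0 h, 9.94, 9.23 and 10.38 at 1 h, 10.17, 10.52 and 10.75 at 2 h, 10.44, 9.74 and 10.12 at 3 h, and 9.49, 9.41 and 9.50 at 4 h. It stood higher on all 2 h arrays than on those of 0 h and 4 h, but its values at 1 h and 3 h overlapped with those of 2 h. Its rise by 2 h of 1.06 ± 0.27 (SE, limma adjusted p = 0.0152) was not called without 0 h A, 0 h C or 2 h C (0.92 to 1.04, adjusted p from 0.0509 to 0.0715). Its fall by 4 h of 1.01 on the log2 scale (adjusted p = 0.0474) was not called without any 1 of 10 arrays, with -0.87 and adjusted p = 0.192 at the extreme, without 2 h C. A second rsp-4 probe set, without the cross-hybridisation suffix, exceeded its 0 h level by 0.64 at 2 h (adjusted p = 0.214). The rsp-8 gene, homologue of the fly splicing regulator Transformer-2, read 6.28, 4.51 and 5.73 at 0 h and 6.44, 7.58 and 7.12 at 2 h, with all 2 h arrays above all 0 h arrays. Its difference of 1.54 ± 0.49 (2.91-fold, adjusted p = 0.0494) was at the threshold and was lost without 11 of the 15 single arrays, among them 0 h B (1.04, adjusted p = 0.212). A second rsp-8 probe set, like the first with the cross-hybridisation suffix, was also highest at 2 h (mean 4.55, against 3.55 at 0 h). It was not called over time (limma's F test, adjusted p = 0.186). The rsp-3 gene, homologue of SF2/ASF, read 7.83, 8.14 and 8.10 at 0 h, 9.04, 6.20 and 9.11 at 1 h and 8.83, 9.47 and 9.82 at 2 h. Array 1 h B was the low one, by over 2 log2 units. The 2 h difference of rsp-3 was 1.35 ± 0.62 (adjusted p = 0.215), and without 1 h B, which lowered the spread, it was called (adjusted p = 0.00748). Other rsp-3 probe sets were also highest at 2 h (means 7.52 and 4.87, against 6.63 and 4.51 at 0 h). They were not called over time (limma's F test, adjusted p = 0.541 and 0.662). For rsp-6, homologue of SRp20, the difference at 2 h was 0.76 ± 0.26 (adjusted p = 0.0754), called without 1 h B (adjusted p = 0.0233) and without 2 h A (0.94, adjusted p = 0.0474).

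**Figure D2:**
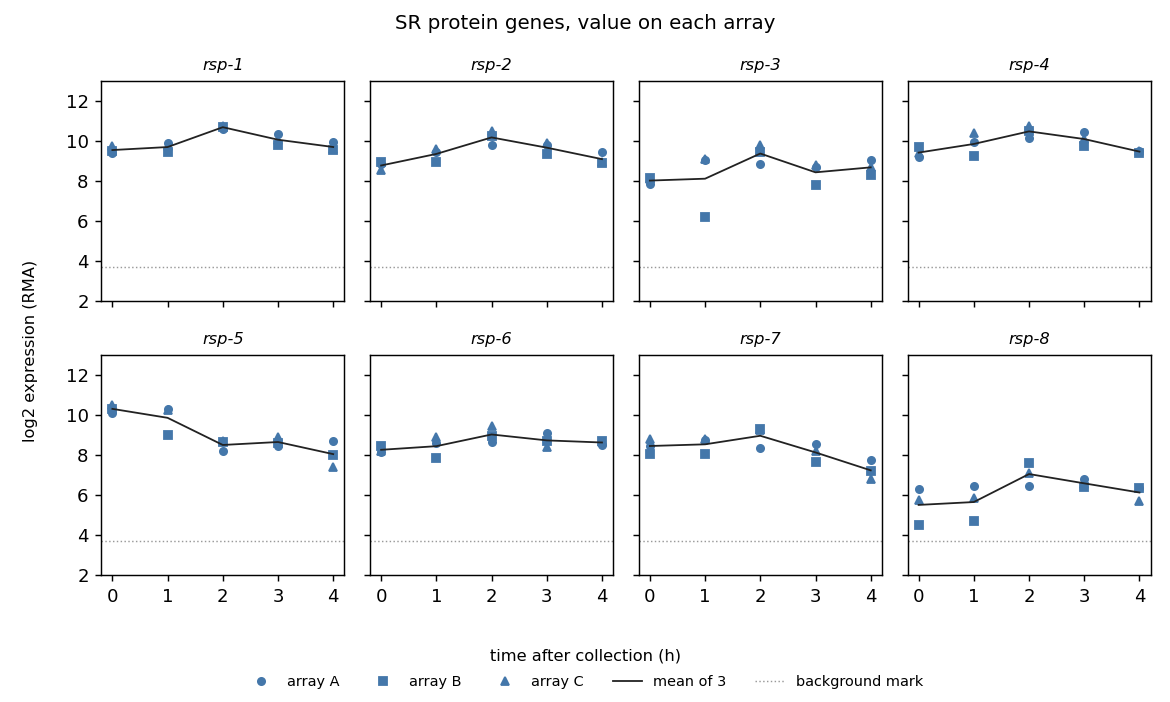
Log2 expression of the 8 SR genes on each array against the time after collection (h), with the mean of 3 arrays as the line and the background mark as the dotted line. All but rsp-5 have their highest mean at 2 h, and the low square at 1 h in rsp-3 is array 1 h B (6.20). With arrays centred on ribosomal protein genes only 3 of the 8 lay above their 0 h level at 2 h.

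The sign of the SR rise changed with the scaling for some genes, and that of the SR fall after it did not. A scaling moves every gene in a comparison by the same amount. The contrast therefore depends on the reference chosen and was not a test of either change. At 2 h 7 of the 8 SR genes lay above 0 h with the deposited values (median 1.10) and with arrays centred on their median (1.07), but 6 did after centring on the hybridisation controls (0.40, none called higher) and 3 after centring on ribosomal protein genes (-0.21, none called higher). Between 2 h and 4 h 8 of 8 lay below in each of these scalings, with medians of -0.96, -1.05, -1.20 and -0.94. These medians moved by less than the smallest SR fall as deposited (-0.40, rsp-6), so no sign could turn. The count of SR genes called lower was 0 on the hybridisation controls. With 1 h B and 1 h C placed by their time tags, 1 of the 8 was called higher at 2 h and 0 lower by 4 h. Among all genes 2.56% both rose by 2 h and fell by 4 h past the threshold, as did 5.19% of the genes above background, and 3 of the 8 SR genes did so (rsp-1, rsp-2 and rsp-4). No other member did.

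Against that shape, rsp-5 (T28D9.2, chromosome II), another member of the SR family, fell. It read 10.07, 10.31 and 10.52 at 0 h, 10.29, 9.0 and 10.26 at 1 h, 8.18, 8.62 and 8.69 at 2 h, 8.44, 8.62 and 8.88 at 3 h, and 8.69, 8.01 and 7.42 at 4 h. All 9 arrays from 2 h on lay below every array of 0 h and 1 h. The difference between 4 h and 0 h was -2.26 ± 0.36 (SE), a 4.78-fold lower level (adjusted p = 0.000542), and it was called under every alternative run. The step from 1 h to 2 h was -1.35 ± 0.36 (adjusted p = 0.0302), but it was not called without 1 h A, 1 h C or any 1 of the 2 h arrays (-1.14 to -1.45, adjusted p from 0.0598 to 0.117). The second rsp-5 probe set, without the cross-hybridisation suffix, fell by 3.14 on the log2 scale (adjusted p = 0.000172). In the WBcel235 gene table rsp-5 lies beside the Sm gene snr-3 with 0 coding genes between them, and snr-3 rose over the same hours. A later and smaller fall was that of rsp-7, homologue of the human SR-related protein SRSF11, which read 8.36, 9.29 and 9.22 at 2 h and 7.73, 7.18 and 6.78 at 4 h, with the 4 h arrays below all of 0 h, 1 h and 2 h. It fell by 1.73 on the log2 scale between 2 h and 4 h (3.31-fold lower, adjusted p = 0.00804). Against 0 h its difference was -1.21 ± 0.34 (adjusted p = 0.0265), not called without 0 h A, 0 h C, 4 h B or 4 h C (-0.99 to -1.20, adjusted p from 0.0643 to 0.117).

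Of the 7 Sm genes only snr-3 (T28D9.10), for SmD1, changed between 0 h and 4 h. It read 9.28, 10.22 and 9.99 at 0 h, 10.28, 10.83 and 10.17 at 1 h, 11.18, 10.84 and 10.55 at 2 h, 11.32, 11.44 and 11.19 at 3 h, and 11.23, 11.23 and 11.21 at 4 h. Every array from 2 h on exceeded every 0 h array, and the spread was small at 4 h (SD 0.01) and wide at 0 h (SD 0.49). The difference was 1.39 ± 0.24 (SE, 2.62-fold, adjusted p = 0.00109), and it was called without any 1 of the arrays and with arrays centred on their median, but it was 0.45 (adjusted p = 0.499) after centring on the hybridisation controls and 0.10 (adjusted p = 0.706) after centring on ribosomal protein genes. At 3 h snr-4, for SmD2, and snr-7, for SmG, were also called, at 0.83 ± 0.24 (adjusted p = 0.03) and 0.76 ± 0.23 (adjusted p = 0.0405). The snr-4 call was lost without any 1 of the 3 h arrays (0.74 to 0.87, adjusted p from 0.0573 to 0.108), and that of snr-7 without 10 single arrays, with 0.49 (adjusted p = 0.151) without 0 h A. At 4 h snr-4 was back at 0.12 from 0 h (adjusted p = 0.79) and snr-7 stood at 0.69 (adjusted p = 0.0616), which passed without 0 h B (0.91, adjusted p = 0.0182) or 1 h B (adjusted p = 0.0495).

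The other Sm genes gave no call in any comparison. snr-2, for SmB, was the steadiest, between 11.20 and 11.59 on all 15 arrays, with a difference of -0.04 ± 0.11 between 4 h and 0 h (adjusted p = 0.844). snr-5 (SmF) and snr-6 (SmE) ranged from 10.84 to 11.91 and from 9.45 to 10.60, with differences of 0.15 and 0.29. snr-1, for SmD3, read 8.49, 9.07 and 9.38 at 0 h, 8.92, 6.12 and 9.49 at 1 h, and 10.27, 9.86 and 9.44 at 4 h. The 1 h B value of snr-1 was the lowest of the 15 by over 2 log2 units, and its difference at 4 h, 0.88 ± 0.64 (adjusted p = 0.432), was called when that array was left out. Over the 7 Sm genes 6 lay above 0 h at 4 h, but only 1 did after centring on the hybridisation controls or on ribosomal protein genes. Array 0 h A was the lowest of its time, or equal lowest, for all 7, and without it 3 of the 7 lay above 0 h at 4 h. The highest mean was at 3 h for 5 of the 7, where 16.5% of all genes and 13.4% of the genes above background had theirs. No Sm gene was called between 2 h and 3 h or between 3 h and 4 h, so this order of means was not a tested peak.

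**Figure D3:**
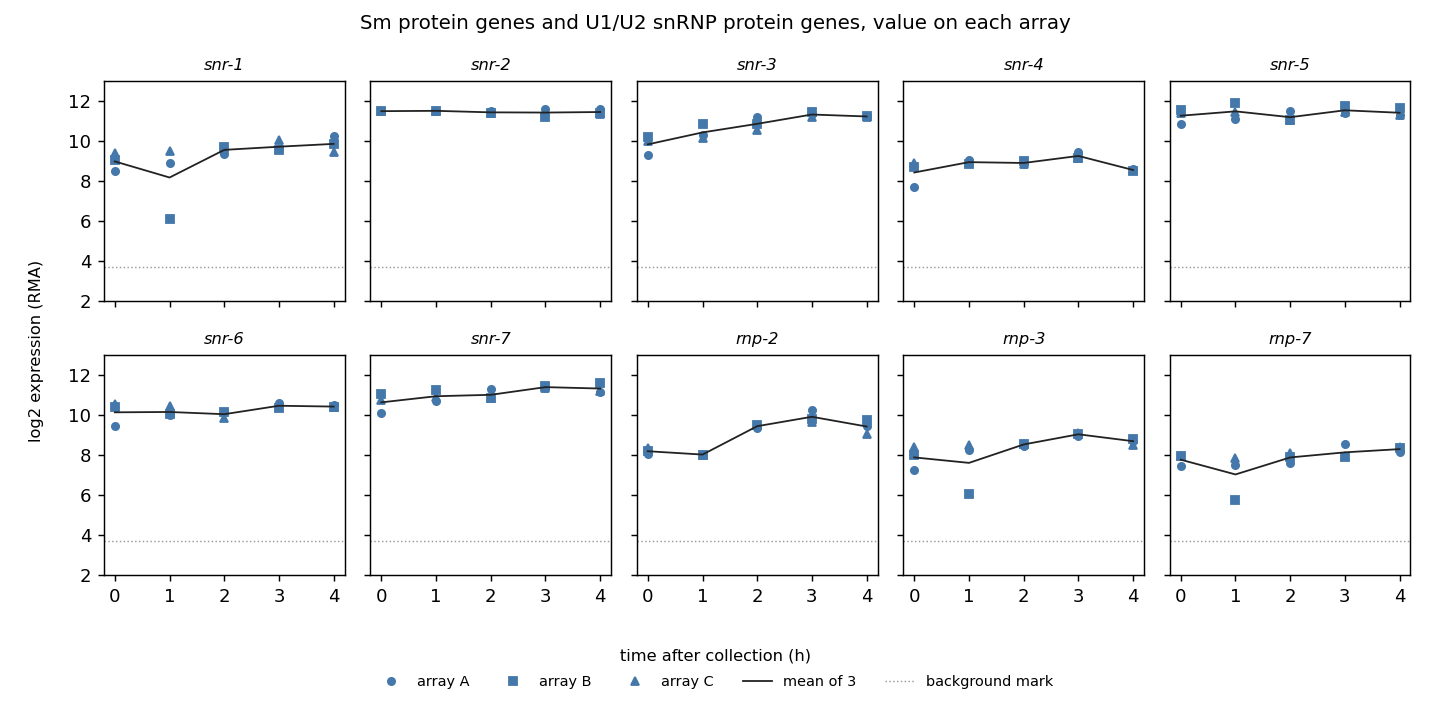
Log2 expression of the 7 Sm genes and of rnp-2, rnp-3 and rnp-7, genes for snRNP proteins, on each array against the time after collection (h), with the mean of 3 arrays as the line. rnp-2 steps from 8.02 at 1 h to 9.43 at 2 h, snr-2 stays between 11.20 and 11.59, and the low squares at 1 h are array 1 h B. The rise of rnp-2 to 4 h turned to -0.06 with arrays centred on ribosomal protein genes.

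Among the snRNP proteins with an RNA recognition motif, rnp-2 (K08D10.4, chromosome IV), related to the A protein of the U1 snRNP, had the sharpest step of the 40 genes from 1 h to 2 h by its adjusted p. It read 8.03, 8.20 and 8.33 at 0 h, 8.02 on each 1 h array, 9.34, 9.47 and 9.49 at 2 h, 10.25, 9.81 and 9.65 at 3 h, and 9.45, 9.75 and 9.06 at 4 h. No array of 0 h or 1 h overlapped with any later one. The step was 1.42 ± 0.18 (SE, 2.67-fold, adjusted p = 0.000218), and rnp-2 was 1.72 ± 0.18 above 0 h at 3 h (3.29-fold, adjusted p = 1.79e-05) and 1.23 ± 0.18 at 4 h (2.35-fold, adjusted p = 0.000296). All 3 calls held without any 1 array. None of them held after centring on the hybridisation controls (1.89, 0.53 and 0.29, limma adjusted p = 0.0827, 0.43 and 0.676). After centring on ribosomal protein genes only the call at 3 h was kept. The step was then 0.40 (adjusted p = 0.084) and the 4 h difference -0.06 (adjusted p = 0.776). With 1 h B and 1 h C placed by their tags the step was 1.06 (adjusted p = 0.962), with the single 1 h array left assumed to vary like the others. Its coding neighbour rnp-3 (K08D10.3), a close relative, read 7.25, 8.0 and 8.38 at 0 h, 8.25, 6.05 and 8.52 at 1 h, 8.96, 9.06 and 9.07 at 3 h and 8.72, 8.82 and 8.52 at 4 h. It was 0.81 ± 0.49 above 0 h at 4 h (adjusted p = 0.337) and was called only when 1 h B, its lowest array, was left out. rnp-7, for a protein particular to the U1 snRNP, read 7.43, 7.93 and 7.92 at 0 h and 8.14, 8.35 and 8.38 at 4 h, and its difference of 0.53 ± 0.41 did not pass (adjusted p = 0.464).

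The U2AF heterodimer, which binds the end of the intron, is encoded by uaf-1 (large subunit) and uaf-2 (small subunit). uaf-2 read 4.58, 4.08 and 4.23 at 0 h, 4.65, 4.94 and 4.80 at 1 h, 5.08, 5.84 and 5.41 at 2 h, 5.14, 4.94 and 4.91 at 3 h, and 4.71, 5.10 and 5.06 at 4 h. The 0 h arrays were below all others. At 2 h it exceeded 0 h by 1.14 ± 0.19 (SE, 2.21-fold, adjusted p = 0.000901), and at 4 h by 0.66 ± 0.19 (adjusted p = 0.0316). Neither rise held in every scaling: that at 2 h was 0.45 (adjusted p = 0.528) after centring on the hybridisation controls and turned to -0.17 after centring on ribosomal protein genes. The rise at 4 h was lost without 0 h B, 0 h C, 4 h B or 4 h C (0.55 to 0.63, adjusted p from 0.102 to 0.129) and with arrays centred on their median (0.54, adjusted p = 0.0906), and it turned to -0.28 after centring on the hybridisation controls and to -0.63 after centring on ribosomal protein genes. uaf-1 went from 4.93 ± 0.48 (SD, n = 3) to 4.21 ± 0.31, a difference of -0.72 ± 0.50 (SE) that did not pass (adjusted p = 0.405), and its arrays at these times overlapped.

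The SF3 proteins hold the U2 snRNP at the branch point, and of their genes among the 40 sap-49 fell and prp-9 rose. sap-49 (C08B11.5, chromosome II), homologue of human SF3B4, read 5.97, 5.37 and 6.41 at 0 h, 5.13, 4.11 and 4.46 at 1 h, 4.05, 4.93 and 4.12 at 2 h, 4.03, 4.45 and 4.45 at 3 h, and 3.99, 4.20 and 4.02 at 4 h. Each 0 h array lay above all 12 later arrays. At 4 h sap-49 was lower by 3.59-fold (-1.85 ± 0.31, SE, adjusted p = 0.000938), a call held under every alternative that included the gene. Both its probe sets carry the cross-hybridisation suffix, so the alternative without such probe sets did not include it. The 4 h values of sap-49 lay close to the background mark, so that the fold may understate the fall. Its second probe set was below the mark at every time and gave no change (-0.16, adjusted p = 0.424). Most of the difference was present at 1 h (-1.35 ± 0.31, adjusted p = 0.015), a call lost without 0 h C (-1.10, adjusted p = 0.0773) or 1 h B (-1.12, adjusted p = 0.0666). prp-9, homologue of SF3A3, went the other way. It read 6.41, 6.74 and 6.41 at 0 h, 8.12, 7.60 and 7.42 at 1 h, and from 7.13 to 8.31 on the 9 later arrays. All 0 h arrays lay below the other 12. The step to 1 h was 1.19 ± 0.31 (2.28-fold, adjusted p = 0.0306), and prp-9 was the only member called higher there, where 3.57% of all genes and 6.6% of those above background were. That step was lost without 0 h A, 0 h C, 1 h A or 1 h B (0.99 to 1.25, adjusted p from 0.0632 to 0.111), and the 4 h difference of 1.11 ± 0.31 (adjusted p = 0.0279) without 0 h A, 0 h C or 4 h B (0.77 to 1.05, adjusted p from 0.0778 to 0.116). prp-21, homologue of SF3A1, ranged from 4.76 to 6.99 with a difference of 0.28 ± 0.43 at 4 h (adjusted p = 0.736).

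Of the genes for the U4/U6 and U5 tri-snRNP, prp-6 rose and prp-31 fell by 4 h. prp-6 (chromosome V), whose yeast and human homologues bridge the snRNPs, read 4.63, 3.80 and 3.68 at 0 h, 4.24, 4.30 and 4.21 at 1 h, 4.67, 4.94 and 5.70 at 2 h, 5.37, 5.56 and 6.60 at 3 h, and 6.22, 5.39 and 4.97 at 4 h. Its levels at 0 h were near the background mark and overlapped with those of 1 h, and all arrays from 2 h on were higher than those of 0 h. It was 1.81 ± 0.40 (SE) above 0 h at 3 h (3.5-fold, adjusted p = 0.00613) and 1.49 ± 0.40 at 4 h (2.81-fold, adjusted p = 0.0195), the latter lost without 0 h B, 0 h C or 4 h A (1.15 to 1.37, adjusted p from 0.0723 to 0.0869). prp-31 read 8.50, 8.80 and 9.08 at 0 h and 7.99, 8.13 and 7.45 at 4 h, which do not overlap. Its difference of -0.94 ± 0.27 (adjusted p = 0.031) was lost without 0 h B, 0 h C, 4 h A or 4 h C (-0.73 to -1.0, adjusted p from 0.0514 to 0.134). prp-4 read 6.09, 5.60 and 6.25 at 1 h and 6.76, 7.44 and 6.96 at 2 h, a rise of 1.08 ± 0.29 (adjusted p = 0.0375) that was lost without 7 single arrays, among them 1 h B (0.89, adjusted p = 0.131). Its means at 3 h and 4 h were 7.56 and 7.51, 0.92 and 0.87 above 0 h, which did not pass (adjusted p = 0.0528 and 0.0667), although the latter did without 3 h A (adjusted p = 0.0382) or 4 h C (1.06, adjusted p = 0.0482). prp-3 ranged from 4.66 to 6.17 with a difference of 0.02 ± 0.27 at 4 h (adjusted p = 0.975).

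prp-8, for the protein at the heart of the U5 snRNP and of the catalytic centre, differed most between the arrays of 0 h. It read 8.47, 4.66 and 4.75 at 0 h, 6.54, 5.25 and 5.16 at 1 h, 6.94, 7.36 and 7.51 at 2 h, 6.61, 6.42 and 6.36 at 3 h, and 6.92, 6.07 and 6.51 at 4 h. Array 0 h A was the highest of all 15, and 0 h B and 0 h C were the lowest. The difference at 4 h was 0.54 ± 0.78 (SE, adjusted p = 0.716), and 1.80 (adjusted p = 0.00502) without 0 h A. prp-40, whose yeast homologue acts with the U1 snRNP, held its level until 3 h and was then lower. It read 7.58, 7.96 and 7.62 at 2 h, 7.39, 7.38 and 7.69 at 3 h, and 6.78, 6.20 and 5.41 at 4 h, below every 2 h and 3 h array. It fell by 1.59 on the log2 scale between 2 h and 4 h (3-fold lower, adjusted p = 0.0264), a call lost without any 1 of the 2 h arrays, 4 h B or 4 h C (-1.23 to -1.66, adjusted p from 0.0538 to 0.112). Against 0 h it was -1.15 ± 0.38 (adjusted p = 0.0593), called without 0 h A (-1.43), 1 h B or 4 h A (-1.47, adjusted p from 0.0224 to 0.0284). The remaining prp genes gave no call. prp-38 ranged from 8.17 to 9.16 and prp-39 from 4.41 to 5.91, with differences of -0.06 ± 0.22 and 0.03 ± 0.34 at 4 h. prp-18, of the second catalytic step in yeast, differed by -0.89 ± 0.29 (adjusted p = 0.0593), a difference called without 0 h A (-1.11), 2 h B or 4 h B (-1.08, adjusted p from 0.0309 to 0.0421). The difference of prp-17, of the same step, was -0.70 ± 0.61 (adjusted p = 0.515), with 4 h C at 3.56 and the other 4 h arrays at 5.50 and 6.31. The highest mean was at 3 h for 7 of the 12 prp genes, against 16.5% of all genes and 13.4% of those above background. No prp gene was called between 2 h and 3 h or between 3 h and 4 h. A peak at 3 h was thus not told apart from a level kept at the hours beside it.

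**Figure D4:**
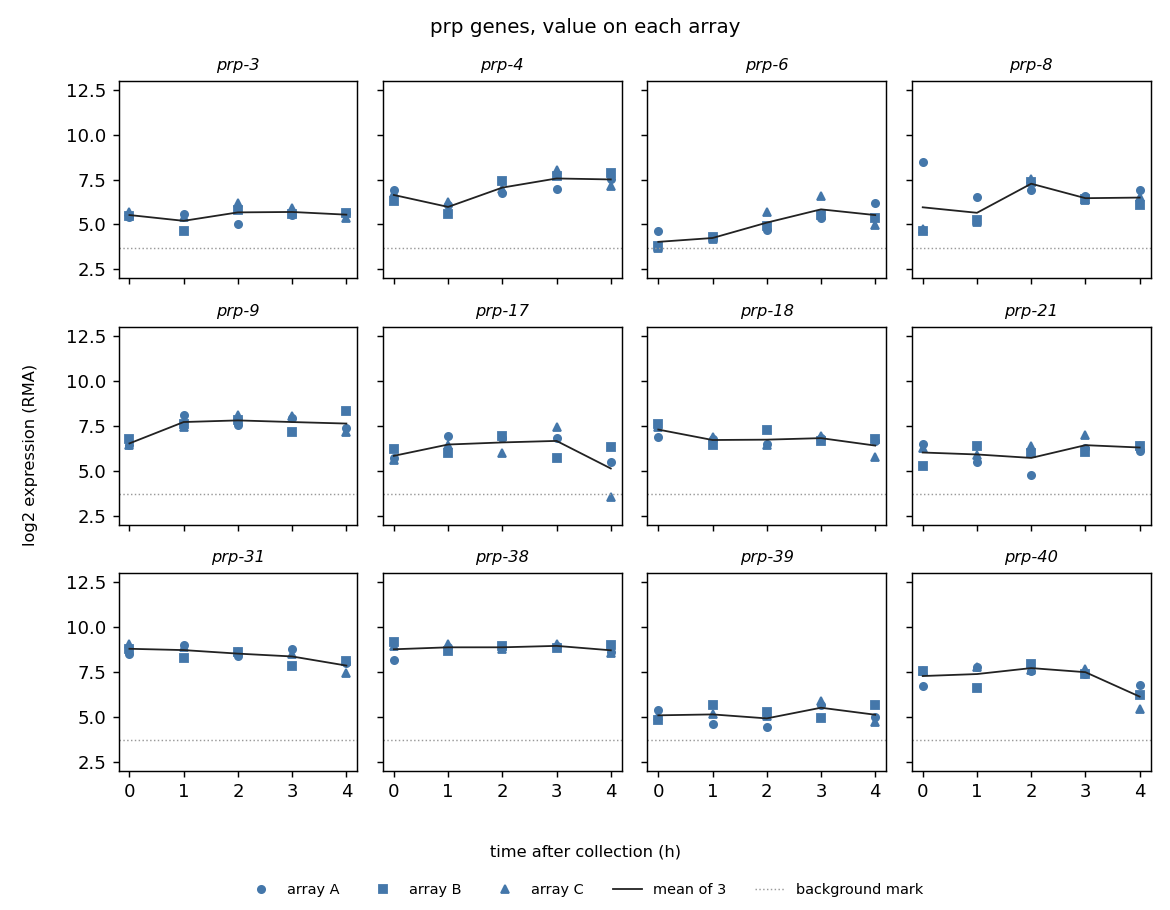
Log2 expression of the 12 prp genes on each array against the time after collection (h), with the mean of 3 arrays as the line and the background mark as the dotted line. prp-9 steps up between 0 h and 1 h, prp-6 is higher from 2 h on, prp-40 is lower at 4 h, and prp-8 has 1 high array at 0 h (8.47). The rises of prp-6 and prp-9 were not called with arrays centred on the hybridisation controls or on ribosomal protein genes, where prp-9 lay at -0.19.

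Of the other rnp genes, rnp-1 fell between 0 h and 1 h, and rnp-8 fell between 0 h and 4 h. rnp-1 (ZK863.7, chromosome V) read 7.26, 7.34 and 7.82 at 0 h, 5.29, 4.06 and 5.59 at 1 h, 4.92, 6.46 and 6.09 at 2 h, 5.75, 5.39 and 6.46 at 3 h, and 6.10, 5.37 and 4.34 at 4 h. The 0 h arrays stood above all 12 later ones, which overlapped among themselves. The step to 1 h was -2.49 ± 0.52 (SE, 5.62-fold lower, adjusted p = 0.00836) and the 4 h difference -2.20 ± 0.52 (4.61-fold lower, adjusted p = 0.0101), and both were called without any 1 array and in every scaling. rnp-1 and sap-49 were the 2 members called lower at 1 h, where 6.31% of all genes and 12.8% of those above background were. With 1 h A as the lone 1 h array neither was called (-2.18, adjusted p = 0.133, and -0.78, adjusted p = 0.454). rnp-8 read 7.15, 4.19 and 5.41 at 0 h and 3.25, 3.22 and 3.56 at 4 h, the 0 h arrays differing by nearly 3 log2 units. All 4 h values were below the background mark, though each exceeded the highest control on its own array (2.98, 3.14 and 3.26). From the 0 h mean to the mark rnp-8 was at least 3.67-fold lower at 4 h (fitted difference -2.24 ± 0.58, SE, limma adjusted p = 0.0162). That bound holds for the mean of the 3 differing 0 h arrays only, and 0 h A raised it. The call was lost without 4 h B (-2.18, adjusted p = 0.0521), and the fitted value moved to -1.46 (adjusted p = 0.0358) without 0 h A and to -2.94 (adjusted p = 0.00128) without 0 h B. At 1 h the difference of rnp-8, -1.92 ± 0.58, did not pass (adjusted p = 0.0587). All 8 maternal transcripts listed were lower on each 4 h array than on each 0 h array, nos-2 for example at 9.58, 10.07 and 9.58 at 0 h and at 2.71, 2.96 and 2.37 at 4 h, and their part in these falls was not tested.

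Of the remaining rnp genes above background and of sap-140, none was called between 0 h and 4 h from its brightest probe set. rnp-4 (Y14) ranged from 10.17 to 10.85, with a difference of 0.33 ± 0.14 at 4 h (adjusted p = 0.156) from its brightest probe set. Its second probe set, without the cross-hybridisation suffix, went from 8.31 to 9.30 and passed (0.98, adjusted p = 0.000387), so the probe sets disagree on the call. rnp-5, homologue of the human exon junction protein RNPS1, read 9.68, 6.76 and 9.44 at 1 h, with 1 h B low, and differed by -0.58 ± 0.70 at 4 h (adjusted p = 0.653). rnp-6, homologue of PUF60, which acts beside U2AF, ranged from 8.21 to 9.76 and differed by 0.10 ± 0.36 (adjusted p = 0.899). sap-140 ranged from 6.54 to 8.36, with -0.31 ± 0.32 (adjusted p = 0.591).

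**Figure D5:**
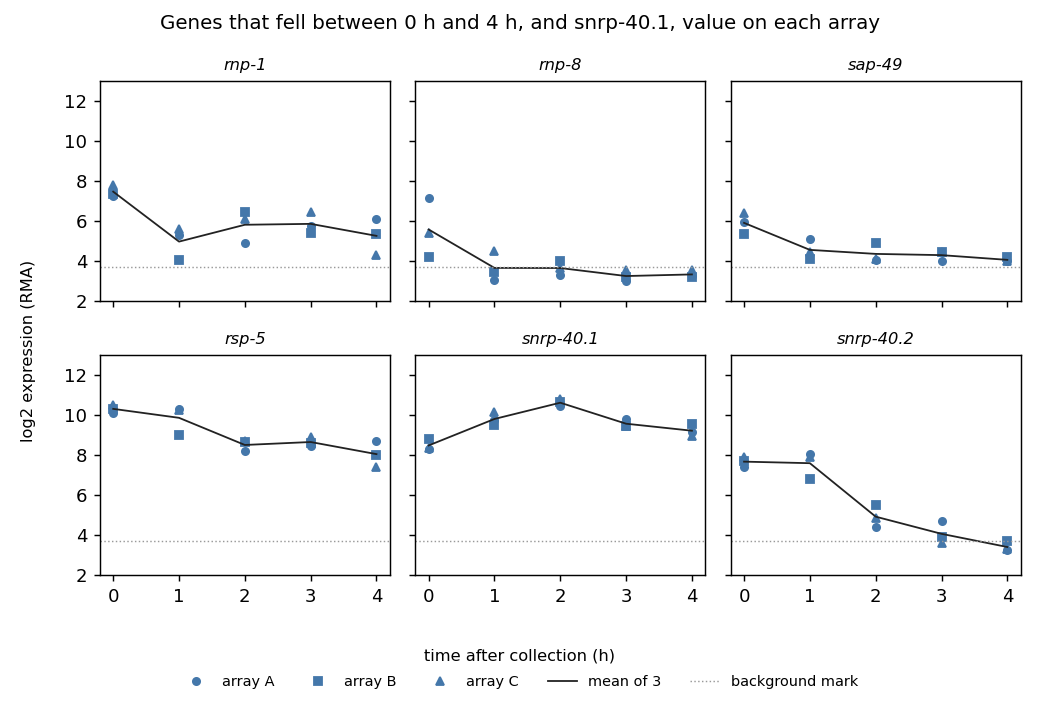
Log2 expression of rnp-1, rnp-8, sap-49 and rsp-5, and of the U5 snRNP genes snrp-40.1 and snrp-40.2, on each array against the time after collection (h), with the mean of 3 arrays as the line and the background mark as the dotted line. the means of rnp-1, rnp-8 and sap-49 have their largest step between 0 h and 1 h, which for rnp-8 did not pass (adjusted p = 0.0587), rsp-5 between 1 h and 2 h, and snrp-40.2 is below the mark at 4 h (3.24 to 3.70) while snrp-40.1 peaks at 2 h (10.61).

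The later steps gave no calls among the 40 genes. Between 2 h and 3 h limma called 0 higher and 0 lower, where 0.858% and 2.09% of all genes, and 1.74% and 4.33% of those above background, were called. At an unadjusted limma p under 0.05 the members were 3 higher and 3 lower. At that threshold 867 and 942 of all 17138 genes passed, and 654 and 834 of the 8124 above background. Between 3 h and 4 h limma also called 0 and 0, where 0.572% and 0.799% of all genes, and 1.08% and 1.64% of those above background, were called. The members at an unadjusted limma p under 0.05 were 0 higher and 8 lower. There 642 and 737 of all 17138 genes passed, and 404 and 639 of the 8124 above background. Leaving out 3 h A gave 1 lower between 2 h and 3 h, and leaving out 0 h A gave 1 lower between 3 h and 4 h. Between 1 h and 2 h, 4 members were higher (rnp-2, prp-4, rsp-1 and rsp-2) and 1 lower (rsp-5), where 6.31% and 3.57% of all genes, and 13% and 6.83% of those above background, were called. The higher count was 2 without 0 h C, 1 h A, 1 h B, 2 h B or 2 h C. At 3 h against 0 h, 8 were higher and 3 lower, where 7.07% and 9.01% of all genes, and 13.9% and 18% of those above background, were called. The higher count became 4 or 5 without 0 h C, 3 h A or 3 h C, 2 with 1 h B and 1 h C placed by their time tags, and 0 after centring on the hybridisation controls. Centring on ribosomal protein genes gave 1 higher and 21 lower.

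Another 76 genes with known parts in splicing, listed by function, were read in the same way. Of these 9 were higher and 4 lower at 4 h than at 0 h, where 7.08% and 9.71% of all genes, and 13.2% and 19.5% of those above background, were called, so that neither count exceeded the share among genes above background. Their median difference was -0.10, with 31 of 76 above 0, against 11351 of all 17138 genes and 4464 of the 8124 above background. Without 0 h A, 0 h C or 4 h B the higher count was 4, 5 or 2. After centring on the hybridisation controls or the ribosomal protein genes it was 0, and in the second case 66 of the 76 were lower. Of 17 tri-snRNP and U6 snRNP genes 4 rose, the Lsm genes lsm-5 (1.20 ± 0.14, SE, adjusted p = 5.05e-05), lsm-4 (1.04) and gut-2 (0.55), whose products bind U6 snRNA, and snrp-40.1 (0.73), for a U5 snRNP protein. In the same list snrp-40.2 (C18E3.5, chromosome I), a second gene for that protein, fell. It read 7.38, 7.72 and 7.91 at 0 h, 8.04, 6.82 and 7.91 at 1 h, 4.40, 5.53 and 4.84 at 2 h, 4.71, 3.90 and 3.59 at 3 h, and 3.24, 3.70 and 3.29 at 4 h. All 4 h values were below the background mark, though each exceeded the highest control on its own array (2.98, 3.14 and 3.26). Against the mark snrp-40.2 was at least 15.5-fold lower at 4 h (limma adjusted p = 3.76e-06). snrp-40.1 read 8.29, 8.80 and 8.33 at 0 h, 9.75, 9.48 and 10.16 at 1 h, 10.42, 10.62 and 10.78 at 2 h, 9.80, 9.43 and 9.45 at 3 h, and 9.15, 9.52 and 8.95 at 4 h. The values of these 2 genes moved in opposite directions between 1 h and 2 h, by 0.81 (adjusted p = 0.0277) for snrp-40.1 and by -2.67 (adjusted p = 0.000477) for snrp-40.2. Both were read from probe sets with the cross-hybridisation suffix. For snrp-40.2 another probe set exists, whose values are not given here. Among 13 genes of snRNP assembly, kinases, cap and exon junction, mag-1, whose product Mago pairs with Y14, rose by 1.08 ± 0.20 (adjusted p = 0.00171), and sna-2, for a protein of the trans-splicing machinery, fell (-0.51 ± 0.16, SE, adjusted p = 0.0499). Of 9 further U2 and SF3 genes mog-2, homologue of a U2 snRNP protein, rose by 1.03, and of 19 helicase and catalytic genes ess-2 fell (-2.28 ± 0.35, SE, adjusted p = 0.000459).

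Of 18 regulators of alternative splicing hrpr-1 (0.72), hrpa-1 (0.70) and ptb-1 (0.34) rose, the last within the background range on every array, and etr-1 fell by 2.40 on the log2 scale (adjusted p = 0.00709). etr-1, of the CELF family, read 7.72, 7.17 and 7.23 at 0 h, 5.32, 2.81 and 4.55 at 1 h, and 6.69, 6.50 and 6.64 at 2 h, low at 1 h and partly restored at 2 h. Only 3 of the 76 genes both rose by 2 h and fell by 4 h past the threshold, snrp-40.1, mec-8 and asd-1, and the last 2 were named after their values had been seen. mec-8, an RNA-binding regulator of exon skipping, read 5.77, 5.66 and 5.63 at 0 h, 7.05, 8.19 and 8.20 at 2 h and 5.24, 5.74 and 6.06 at 4 h. It was 2.13 ± 0.38 (SE) above 0 h at 2 h (adjusted p = 0.00136), the arrays of 2 h lying above those of both other times. asd-1, of the Fox-1 family of exon regulators, was 1.10 ± 0.31 higher at 2 h (adjusted p = 0.0288) and fell by 1.62 on the log2 scale by 4 h (adjusted p = 0.00664).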

How the data were processed

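Per the labels' protocols, biotin-labelled cRNA of 15 samples was hybridised to 1-colour Affymetrix arrays for C. elegans. The authors deposited log2 expression values, 1 for each of 22625 probe sets and array, and the submitters' processing notes name RMA, with no version, as their source. RMA corrects background, normalizes between arrays and summarises probes, and it compresses low values. Scanner files were not used here. After removal of 77 control probe sets, 22548 were tested, of which 20810 had 1 gene symbol in the platform annotation, 843 several and 895 none, and names come from those with 1 symbol. Genes were matched by Entrez identifier to the WBcel235 gene table for names, chromosomes and gene order, and all 40 were found. No build is given for the annotation, so no coordinates are printed. Every column was mapped by name (0 unassigned).

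All 5 times were fitted together with limma 3.58.1 in R 4.3.3 (lmFit and eBayes), and p-values were adjusted by Benjamini-Hochberg over all probe sets. Differences carry the standard error (SE) of that fit, whose median was 0.19 over all probe sets and 0.31 for the 40 genes. Precision is limited by how many arrays there are. Samples of 1 time are labelled independent, but separate mothers or days are not named, and the p-values therefore reflect only the variation among these samples, part of which may be technical. The members and lists were chosen with earlier results of these data known. Any of the 40 genes could be named, and of the other splicing lists up to 8 called rises and 8 called falls at 4 h, beside ptb-1, which completes a count. The comparisons of 2 h and 3 h with 0 h and of 4 h with 2 h were added after the data had been seen. Alternatives were other scalings, other probe set choices, array placement by time tag, a background filter, the replicate letter as a block, another variance prior and each array left out. The replicate letters did not pair samples: same-letter pairs of arrays had a mean correlation of deviations of -0.003. A simulation of the comparison of 4 h and 0 h, on 22548 probe sets with 50 changed at each size, recovered 18% at 0.5, 50% at 1, 92% at 2 and 98% at 3 log2 units and made 6 false calls. In the data 1213 genes were called higher and 1664 lower at 4 h. The 40 genes also had a larger median SE than all probe sets, so these rates need not hold for them.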

Additional observations from a re-analysis of the deposited data

How the results depend on the processing

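With arrays 1 h B and 1 h C placed by their time tags, 3 of the 40 genes changed over time, 2 rose by 4 h, 0 moved either way at 1 h or between 1 h and 2 h, 4 rose by 2 h, 2 by 3 h, 1 rose and 0 fell between 2 h and 4 h, and 1 SR gene rose by 2 h and 0 fell after it; of the other splicing genes 2 fell. Without both arrays 0 were called at 1 h and 1 rose between 1 h and 2 h, where 1 h A alone is assumed to vary like the other times. Arrays centred on their median gave 3 members higher at 4 h, 4 at 3 h, 0 at 1 h, 0 lower between 1 h and 2 h and 3 other splicing genes higher. Arrays centred on the hybridisation controls gave 4 members changing over time, 0 higher at any time against 0 h, 0 called between 1 h and 2 h, 0 lower between 2 h and 4 h and 0 other splicing genes higher, and 4 of the 40 differences at 4 h stayed above 0, against 26 as deposited. Of calls, uaf-2 turned to -0.28 at 4 h, and at 3 h so did snr-4 (-0.37), snr-7 (-0.43), uaf-2 (-0.49), prp-9 (-0.0023) and rsp-2 (-0.30). Arrays centred on ribosomal protein genes gave 33 changing over time, 0 higher and 29 lower at 4 h, 0 and 4 at 1 h, 0 and 25 at 2 h, 1 and 21 at 3 h, 0 and 19 between 1 h and 2 h, 1 lower between 3 h and 4 h, and 0 higher and 66 lower among the other splicing genes. In that scaling 2 of the 40 differences at 4 h stayed above 0. They turned negative for snr-4 (-1.17), snr-5 (-1.15), snr-6 (-1.01), snr-7 (-0.60), rnp-2 (-0.061), rnp-4 (-0.96), rnp-6 (-1.20), rnp-9 (-0.98), uaf-2 (-0.63), prp-3 (-1.27), prp-9 (-0.19), prp-21 (-1.01), prp-39 (-1.26), rsp-1 (-1.14), rsp-2 (-0.98), rsp-4 (-1.24) and rsp-6 (-0.93), where the negative value was called or the rise had been, and without a call for snr-1 (-0.42), rnp-3 (-0.49), rnp-7 (-0.77), prp-4 (-0.43), prp-8 (-0.75), rsp-3 (-0.63) and rsp-8 (-0.67). So did those at 2 h for rsp-1 (-0.17), rsp-4 (-0.25), rsp-7 (-0.80), snr-3 (-0.29), rnp-2 (-0.062), uaf-2 (-0.17) and prp-9 (-0.029), at 3 h for snr-4 (-0.35), snr-7 (-0.42), uaf-2 (-0.48) and rsp-2 (-0.29), and between 1 h and 2 h for rsp-1 (-0.030) and rsp-2 (-0.20). Probe sets without a cross-hybridisation suffix, which exist for 23 members, gave 8 changing over time, 3 higher at 4 h, 0 higher and 1 lower at 1 h, 3 and 1 at 2 h, 4 and 1 at 3 h, 2 lower between 2 h and 4 h, 1 SR gene higher by 2 h and 2 lower after it, and 5 higher and 1 lower among the other splicing genes. These counts fall in part because fewer genes are tested. With the replicate block, whose letters did not pair the samples, 0 were higher at 1 h, 2 between 1 h and 2 h, 3 lower between 2 h and 4 h and 5 other splicing genes higher, and 4 members were higher and 6 lower at 4 h. A trended robust prior gave 2 higher between 1 h and 2 h and 5 other splicing genes higher. Leaving out each array in turn gave 2 to 8 higher and 4 to 7 lower at 4 h, 0 to 1 and 1 to 3 at 1 h, 5 to 10 higher at 2 h, 4 to 12 higher at 3 h, 2 to 5 higher and 0 to 1 lower between 1 h and 2 h, 0 to 1 lower in each of the later steps, 2 to 5 lower between 2 h and 4 h, 2 to 6 SR genes higher at 2 h, 2 to 4 SR genes lower after it, and 2 to 11 other splicing genes higher. Save for the effects of scaling and of fewer genes, the cause was not tested.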
